A study of Homo sapiens with 13 samples.

Results

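The genes described here encode splicing factors, heterogeneous nuclear ribonucleoproteins (hnRNPs) and RNA helicases, chosen by gene symbol (the SRSF, U2AF, SF3A/SF3B, SNRP/SNRNP, LSM, PRPF, HNRNP, DDX, DHX and CPSF/CSTF names) in myeloma cell lines after knockdown of the transcription factor IRF4. Of the genes spotted on the arrays, 50 carried such a symbol, and the 41 with a value on at least 7 of the 13 arrays are the members, out of 3841 named genes and 3107 unnamed array features that met the same minimum. The members comprised 13 HNRNP, 6 DDX, 5 DHX, 4 SNRP/SNRNP, 4 LSM, 3 PRPF, 2 SRSF and 2 U2AF genes, with SF3B4 and CSTF3 alone in their families. They were read by 57 features, and 22 members had a value on all 13 arrays. Below the minimum were CPSF6 and DDX3Y with a value on 6 arrays, DDX31, SNRNP27 and SRSF3 with 5, HNRNPA2B1 with 4, DHX36 and SRSF10 with 3, and LSM6 with 0. Just inside it, with 7 arrays, were DDX6, DHX57, HNRNPA1, HNRNPA1L2, HNRNPH3 and SRSF4.

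Each of the 13 Lymphochip spotted cDNA arrays set a myeloma culture infected with an inducible IRF4 hairpin (Cy5) against a culture of the same line infected with a hairpin against luciferase, shluc (Cy3), so a log2 ratio below 0 means less mRNA with the IRF4 hairpin. All induced cultures, controls included, are labelled with 20 ng/ml doxycycline. The induced groups were H929 at day 4 (2 arrays, shi_2046), SKMM1 at day 4 (1 array, shi_2046), and KMS12 at days 2-3 (3 arrays), days 4-5 (3 arrays) and day 7 (1 array), and the uninduced group was KMS12 without doxycycline (3 arrays). The KMS12 arrays came as the culture series shi_1332 (days 0, 3, 5 and 7), shi_1332b and shi_2046 (both days 0, 2 and 4), whose values are always given in that order. Day and series cannot be told apart within a window. The labels do not say whether cultures were clones or pools, and since arrays of a group may repeat a culture, p-values measure only the spread between arrays.

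Introns are removed from pre-mRNA by the spliceosome. In it, small nuclear ribonucleoproteins (snRNPs, built on Sm and LSM proteins), the U2AF dimer and the SF3B complex recognise splice sites. PRPF proteins join the tri-snRNP, and helicases of the DHX group and SNRNP200 drive many of the rearrangements. SR proteins such as SRSF7 mostly promote the use of an exon, whereas hnRNPs coat nascent RNA and often repress exons. DDX helicases remodel RNA in splicing, transcription, ribosome assembly and mRNA decay. In plasma cells, alternative processing of immunoglobulin heavy chain RNA is the classic case, since it sets whether the antibody is secreted or kept in the membrane.

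Members that were among the lowest at days 2-3 and whose promoter held a searched motif are shown by their RefSeq promoters, 250 bases before to 50 after the gene start on GRCh38.p14, in lower case with the motif in capitals. DHX15 (chr4:24584505-24584804, minus strand) and HNRNPU (chr1:244864494-244864793, minus strand) held the interferon response element core to which IRF proteins bind, GAAANNGAAA on either strand, and DDX5 (chr17:64506589-64506888, minus strand) held the E-box CACGTG, the sequence that MYC and its relatives bind.
DHX15: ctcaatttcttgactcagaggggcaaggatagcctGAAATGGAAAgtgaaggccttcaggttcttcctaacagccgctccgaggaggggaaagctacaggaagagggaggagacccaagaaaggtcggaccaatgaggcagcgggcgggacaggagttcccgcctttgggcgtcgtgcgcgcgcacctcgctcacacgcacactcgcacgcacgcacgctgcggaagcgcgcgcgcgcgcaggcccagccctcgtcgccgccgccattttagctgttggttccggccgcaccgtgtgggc
HNRNPU: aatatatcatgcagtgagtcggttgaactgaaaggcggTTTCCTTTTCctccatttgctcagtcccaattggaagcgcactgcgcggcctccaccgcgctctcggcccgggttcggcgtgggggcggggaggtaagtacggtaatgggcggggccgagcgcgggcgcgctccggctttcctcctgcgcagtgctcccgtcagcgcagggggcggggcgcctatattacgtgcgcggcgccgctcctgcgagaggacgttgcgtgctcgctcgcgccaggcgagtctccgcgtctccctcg
DDX5: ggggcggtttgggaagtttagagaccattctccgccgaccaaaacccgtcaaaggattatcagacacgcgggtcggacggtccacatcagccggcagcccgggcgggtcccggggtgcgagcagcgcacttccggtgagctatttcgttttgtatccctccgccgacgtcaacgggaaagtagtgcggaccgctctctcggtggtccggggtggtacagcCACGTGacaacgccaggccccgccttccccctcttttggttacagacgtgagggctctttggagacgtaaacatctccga

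Of the members, 38 had a promoter in the RefSeq table of 27305. The interferon response element core was in 3 of them (DHX15, HNRNPD and HNRNPU, 7.89%, against 3.65% of all promoters). The ETS-IRF composite GGAANNGAAA, searched on both strands, was in 3 (DHX8, SF3B4 and SNRNP200, 7.89%, against 2.84%). The E-box was in 5 (DDX5, HNRNPD, HNRNPH3, HNRNPM and SNRNP48, 13.2%, against 7.43%). The first motif and the composite share their last GAAA and may overlap in a promoter. Member promoters had a median GC content of 61.5%, against 58.3% for all. A match describes letters in this window and was not related to binding.

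IRF4 itself, the target, had log2 ratios of -1.84 and -2.03 in H929, -2.09 in SKMM1, and -1.23, -1.83 and -0.89 at days 2-3 in KMS12, against 0.32, 0.14 and 0.36 in uninduced KMS12. At days 4-5 the KMS12 ratios were -0.69, -0.85 and -0.73, and every induced KMS12 ratio lay nearer 0 than those of the other lines. Between 7140 and 14228 features had a value on an array, each array was centred on its median, and signal intensities were not used here. The lowest correlation between arrays was -0.33 (SKMM1 with uninduced KMS12 of series 2046), and the direction was kept as the dyes give it. On that uninduced array the 2598 genes measured on all 13 arrays had a median of 0.24, against -0.07 to 0.04 on the other arrays. Differences against uninduced therefore shift with the centring: with arrays centred on those genes, the median of all genes at days 2-3 was 0.18 in place of 0.02, and 26 of 39 members lay below the median of all genes with either centring. Members are set against the median of all genes for that reason.

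Across arrays the members did not move as a block. Member medians were 0.06 and -0.05 in H929, -0.15 in SKMM1, -0.07, -0.27 and -0.01 at days 2-3, -0.00, -0.12 and -0.16 at days 4-5 and 0.36 at day 7, against -0.01, 0.03 and 0.17 in the uninduced arrays. The share of members far below 0 differed between arrays, also between repeats of a group. Members at a log2 ratio of -1 or below made up 25.0% of those measured on the second H929 array (7.31% of all genes), against 3.33% on the first (2.88% of all genes), and 25.8% on the SKMM1 array (8.48% of all genes). At days 2-3 they made up 5.88% in series 1332, below the 9.71% of all genes, 21.1% in series 1332b (12.2% of all genes) and 7.69% in series 2046 (3.39% of all genes). On the 3 arrays at days 4-5 the shares were 0%, 5.0% and 5.41%, against 1.81%, 1.43% and 2.22% of all genes, and on the uninduced arrays 8.33%, 0% and 2.56%, against 10%, 0.465% and 1.45% of all genes. Set against the uninduced array of its own series, day 4 of series 2046 had 7 of 36 members lower by 1 or more (19.4%, against 3.86% of all genes). Series 1332 had 1 of 32 at day 5 (3.125%, against 3.09% of all genes) and series 1332b 0 of 40 at day 4 (0.864% of all genes). No member was on the same side of 0 on every induced array, among the 30 with at least 8 induced values, whereas 2.40% of all such genes were always below 0 and 2.04% always above.

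**Figure D1:**
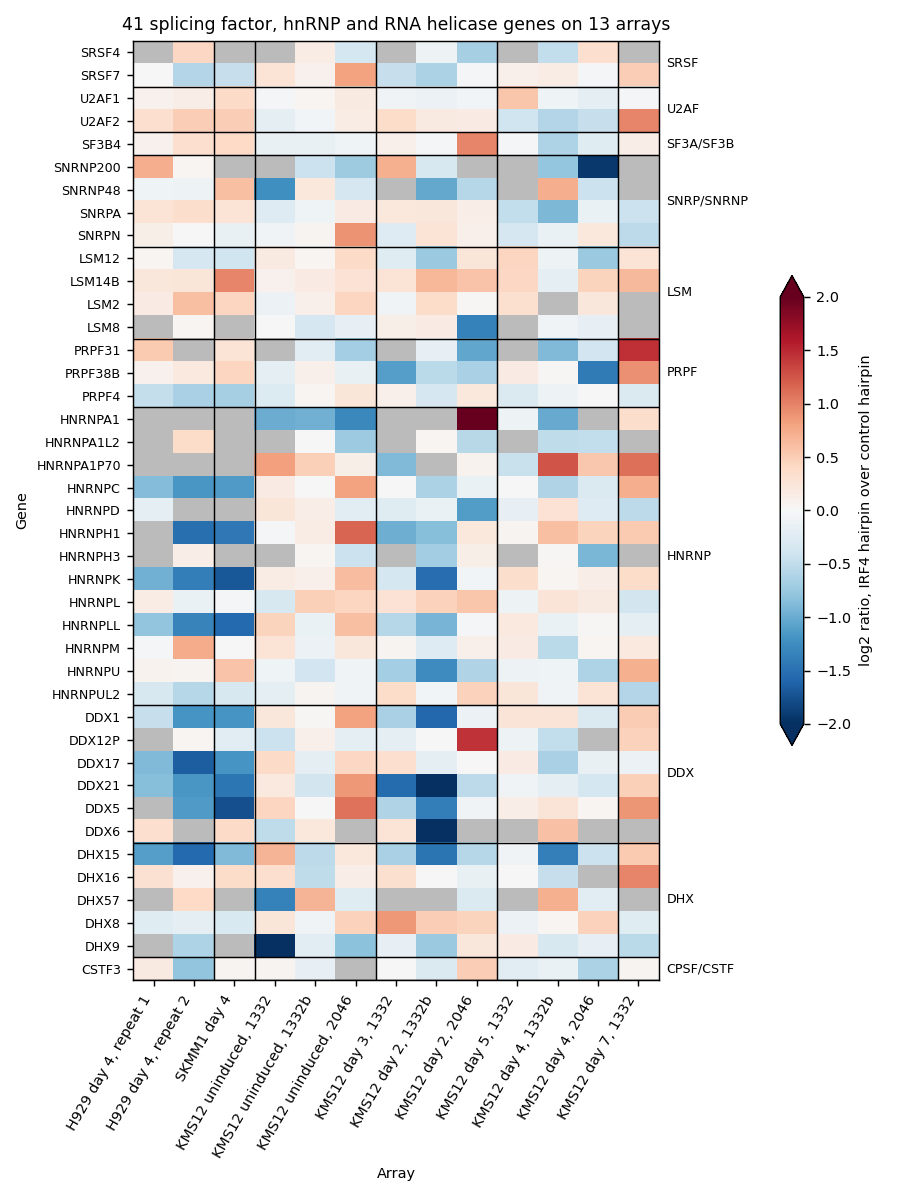
Log2 ratio (IRF4 hairpin over control, colour) of the 41 members (rows, by family) on the 13 arrays (columns), with missing values in grey and colours ending at -2 and 2. DDX1, DDX5, DDX17, DDX21, DHX15 and several HNRNP genes are blue in H929 and SKMM1, and most of these also on the days 2-3 arrays of series 1332 and 1332b.

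At days 2-3 against uninduced, the lowest members were DEAD-box and DEAH-box helicases and RNA-coating hnRNPs: DDX21, DDX5, DDX1, DHX15, HNRNPH1 and HNRNPK had log2 differences between -0.94 and -1.69, and SRSF7 had -0.77. Of 39 members tested, 26 lay below 0 (48.7% of all genes), with a median difference of -0.17 against 0.02 for all genes. With arrays centred on features measured on all 13, 20 lay below 0 (37.9% of all genes). With limma and Benjamini-Hochberg adjustment over all 5980 genes and features, 0 members had an adjusted p under 0.05, as did 0% of all genes. At an unadjusted p under 0.05 there were 9 members, all lower, against 21.4% of all genes in either direction, so the members' share of 23.1% was close to the background. Counting arrays alone, 10 of the 30 members with all 6 values had every days 2-3 array below every uninduced array, against 21.8% of all genes, and 2 (SF3B4 and U2AF2) had them all above, against 8.78%.

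These 9 members were picked by their unadjusted p on the same arrays, so their agreement across series is no separate support. Each of them was lower in all 3 series than on the uninduced array of its own series. So were 15 of the 30 members with all 6 values, against 35.8% of all genes, and 3 (LSM14B, SF3B4 and U2AF2) were higher in all 3, against 17.2%. DDX21 differed from its own uninduced array by -1.73, -1.96 and -1.39, DDX5 by -1.02, -1.39 and -1.16, and HNRNPH1 by -0.95, -1.01 and -0.94. The day 2 ratio of series 2046 was the highest of the days 2-3 group for all 9, but its uninduced ratio was also the highest for 8 of them, and its difference was the smallest in size for 5 of the 9. Over 38 members the median difference in series 2046 was -0.26, with 28 below 0 (-0.12 over all genes). It was -0.05 in series 1332 (0.00 over all genes) and -0.21 in series 1332b (0.02 over all genes). With series as a block in limma, 11 members had an unadjusted p under 0.05, all lower (24.8% of all genes), and the smallest adjusted p was 0.0693 (DDX21 and DHX15).

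The calls depended on which arrays entered. Without the day 2 array of series 2046, 6 of 33 members had an adjusted p under 0.05 and were lower (DDX1, DDX5, DDX21, HNRNPH1, HNRNPK and HNRNPLL), against 11.5% of all genes lower in that fit. With series as a block, leaving out that array called DDX1, DDX5, DDX21, DHX15 and HNRNPLL (10% of all genes lower), leaving out day 4 of series 1332b called DDX5, DDX21 and DHX15 (3.48% lower), and leaving out day 4 of series 2046 called DDX21 (1.96% lower). IRF4 was nearest 0 at day 2 of series 2046 among days 2-3 arrays, at -0.89. When days 2-3 were tested against a ratio of 0 in place of the uninduced arrays, DDX21 and HNRNPU were lower (6.54% of all genes lower), and among features measured on all 13 arrays DDX21 was lower (6.07% of genes lower).

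Among the DDX helicases, DDX21, a nucleolar helicase of ribosomal RNA processing, had the most negative difference of all members. Its log2 ratios were -1.53, -2.33 and -0.52 at days 2-3, against 0.20, -0.37 and 0.86 uninduced, so the groups did not overlap. The mean was -1.46 ± 0.90 at days 2-3 and 0.23 ± 0.61 uninduced (SD, n = 3 each), a log2 difference of -1.69 (SE 0.43, adjusted p = 0.106). Both of its features gave negative differences, -2.11 and -1.28. DDX5, which works in transcription and splicing, had -0.59, -1.39 and -0.07 at days 2-3, against 0.42, 0.00 and 1.09 uninduced. Again every induced array lay below every uninduced one, with a difference of -1.19 (SE 0.37, adjusted p = 0.123). DDX1, part of the tRNA ligase complex, had -0.65, -1.56 and -0.12 at days 2-3, against 0.23, 0.03 and 0.80 uninduced. Its difference was -1.13 (SE 0.38, adjusted p = 0.139), and its 2 features gave -1.19 and -1.07.

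The other DDX genes were spread around 0. DDX17, the close paralog of DDX5, had 0.34, -0.18 and -0.01 at days 2-3, against 0.38, -0.18 and 0.41 uninduced, and its groups overlapped (difference -0.15, SE 0.30). DDX6, an mRNA decay factor, had values on 2 arrays per group, 0.28 and -2.01 at days 2-3 against -0.50 and 0.21 uninduced. DDX12P, a pseudogene whose cDNA may also capture transcripts of its near-identical functional relatives, was highest of the family with a difference of 0.60, and this rested on 1.45 in series 2046.

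Of the DHX helicases that drive the spliceosome, DHX15, which takes apart the spent complex, was the lowest. It had -0.65, -1.45 and -0.57 at days 2-3, against 0.68, -0.53 and 0.21 uninduced, without overlap (difference -1.01, SE 0.41, adjusted p = 0.19). DHX8, which releases finished mRNA, had 0.87, 0.50 and 0.45 at days 2-3 against 0.25, -0.07 and 0.47 uninduced, and these overlapped (difference 0.39). DHX16, which acts before the first catalytic step, differed by 0.07. DHX9, a helicase of double-stranded RNA and R-loops, had the highest difference of the members tested, 0.85 (SE 0.46), which rested on uninduced values of -2.18, -0.22 and -0.82. Tested against 0, its days 2-3 mean was -0.23.

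HNRNP genes supplied 4 of the 9 members at an unadjusted p under 0.05. Of 12 tested, 9 lay below 0 (48.7% of all genes), with a family median of -0.57. HNRNPK, which binds C-rich RNA, had -0.35, -1.52 and -0.06 at days 2-3, against 0.15, 0.10 and 0.62 uninduced, with no overlap (difference -0.94, SE 0.35, adjusted p = 0.163). Its 2 features gave -1.13 and -0.58. The second had no value on the uninduced array of series 2046. It overlapped, with 0.085 at day 2 of series 2046 against 0.067 uninduced in series 1332b. HNRNPLL, known in lymphocytes for repressing variable exons of PTPRC, had -0.56, -0.94 and -0.03 at days 2-3, against 0.44, -0.14 and 0.59 uninduced. The series 2046 value overlapped the uninduced range (difference -0.81, SE 0.29, adjusted p = 0.157). HNRNPU, which binds chromatin-associated RNA, had -0.68, -1.26 and -0.61 at days 2-3, against -0.08, -0.39 and -0.07 uninduced, so all 3 series were lower (difference -0.67, SE 0.25, adjusted p = 0.162). HNRNPH1, which binds G-runs, had -0.97, -0.86 and 0.22 at days 2-3, against -0.02, 0.15 and 1.16 uninduced. Here series 2046 overlapped (difference -0.97, SE 0.39, adjusted p = 0.198).

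The remaining hnRNPs spread between these and slightly positive differences. HNRNPC, which binds U-tracts, did not overlap (-0.02, -0.64 and -0.13 at days 2-3, against 0.17, 0.00 and 0.80 uninduced, difference -0.58, adjusted p = 0.26). HNRNPUL2, related to HNRNPU, was the highest in the family at 0.32, and its 3 features gave -0.07, 0.43 and 0.75, which differ in sign. HNRNPL, the relative of HNRNPLL, differed by 0.24. HNRNPA1 had 1 value at days 2-3, 4.11 in series 2046, against -0.99, -0.97 and -1.29 uninduced, and was not tested there. HNRNPA1, HNRNPA1L2 and HNRNPA1P70 are near-identical in sequence, so cDNA spots may not tell them apart, and their values are uncertain.

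SRSF7, an SR protein, was read by 6 features, the most of any member. Its gene mean was -0.46, -0.64 and -0.04 at days 2-3, against 0.28, 0.09 and 0.81 uninduced, and the groups did not overlap (difference -0.77, SE 0.27, adjusted p = 0.144). All 6 features gave negative differences, between -0.63 and -0.84. SRSF4 had 2 values per group and differed by -0.29.

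**Figure D2:**
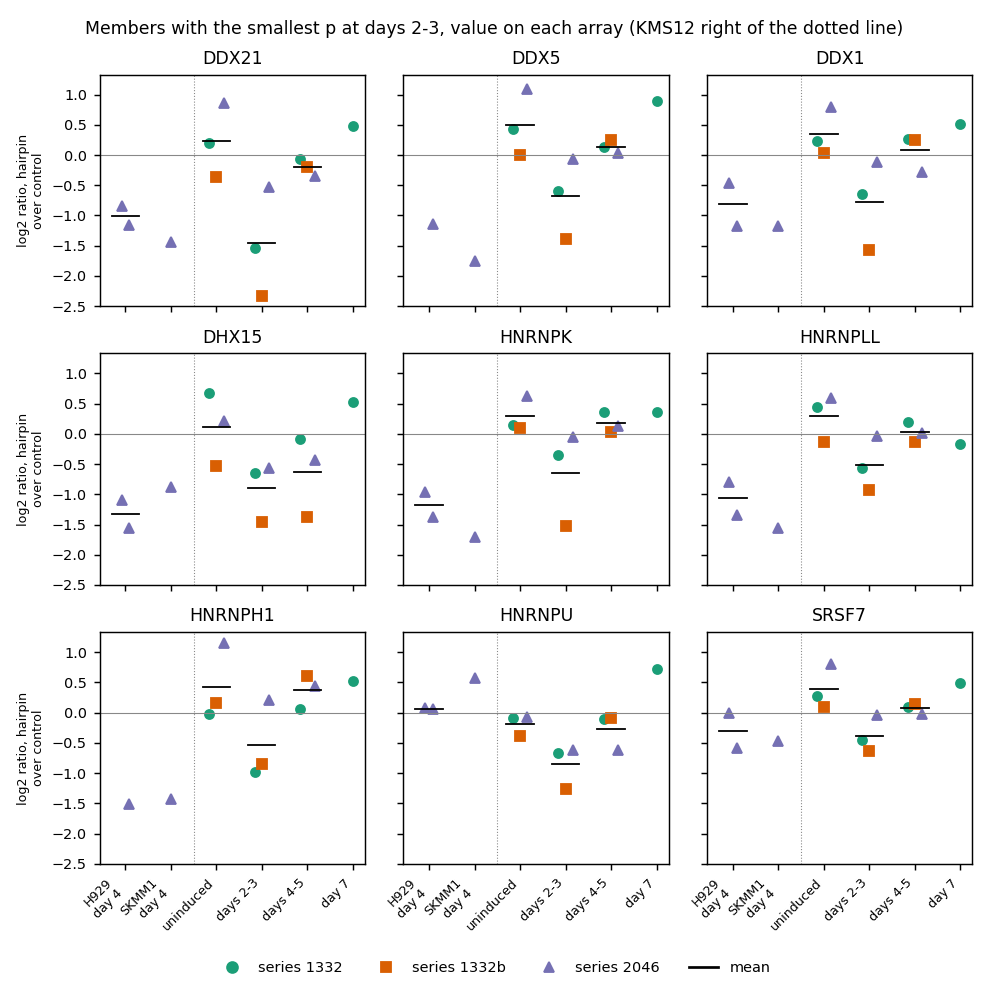
Log2 ratio on each array for the 9 members with an unadjusted p under 0.05 at days 2-3, by group, with markers for the culture series and black lines for the mean of groups with more than 1 array. The days 2-3 points of series 1332 and 1332b lie below 0 in every panel, and the series 2046 point is the highest of the days 2-3 group in every panel.

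The proteins that first recognise the intron's end were near or slightly above 0 at days 2-3. U2AF2, the large subunit that binds the pyrimidine tract, had 0.37, 0.17 and 0.17 at days 2-3, against -0.18, -0.05 and 0.14 uninduced, so the induced arrays were all higher (difference 0.27, SE 0.19, adjusted p = 0.458). U2AF1, the small subunit, had -0.07, -0.12 and -0.06, against -0.04, 0.04 and 0.17 uninduced, all lower by a small margin (difference -0.14, adjusted p = 0.768). SF3B4, a subunit of SF3B, had 0.10, -0.04 and 0.98 at days 2-3, against -0.15, -0.15 and -0.08 uninduced. Its difference of 0.48 (adjusted p = 0.358) was largest in series 2046, where 1 of its 2 features read 1.83 and the other 0.13. The feature at 1.83 had no value on the uninduced array of that series, and the other read -0.08 there. The size in series 2046 thus depends on which features were averaged.

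The snRNP, LSM and PRPF members gave no unadjusted p under 0.05 at days 2-3. SNRPA, the A protein of the snRNP that binds the start of the intron, differed by 0.25, and SNRPN, an Sm protein, by -0.25. SNRNP200, the helicase that unwinds the tri-snRNP, had 0.71 and -0.32 on 2 arrays at days 2-3 against -0.42 and -0.71 uninduced, the highest difference in its family at 0.76, which turned to -0.11 with series as a block. SNRNP48, of the minor spliceosome, was lowest there at -0.35, or -0.74 with the block. In the LSM family LSM12 differed by -0.45 and LSM14B, of a family of cytoplasmic mRNA-binding proteins, by 0.33. In the PRPF family PRPF38B was lowest at -0.69 (-1.11, -0.54 and -0.65 at days 2-3, against -0.18, 0.11 and -0.15 uninduced, no overlap), and PRPF4 was highest at -0.01. CSTF3, which stimulates cleavage of the pre-mRNA 3′ end, differed by 0.12.

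**Figure D3:**
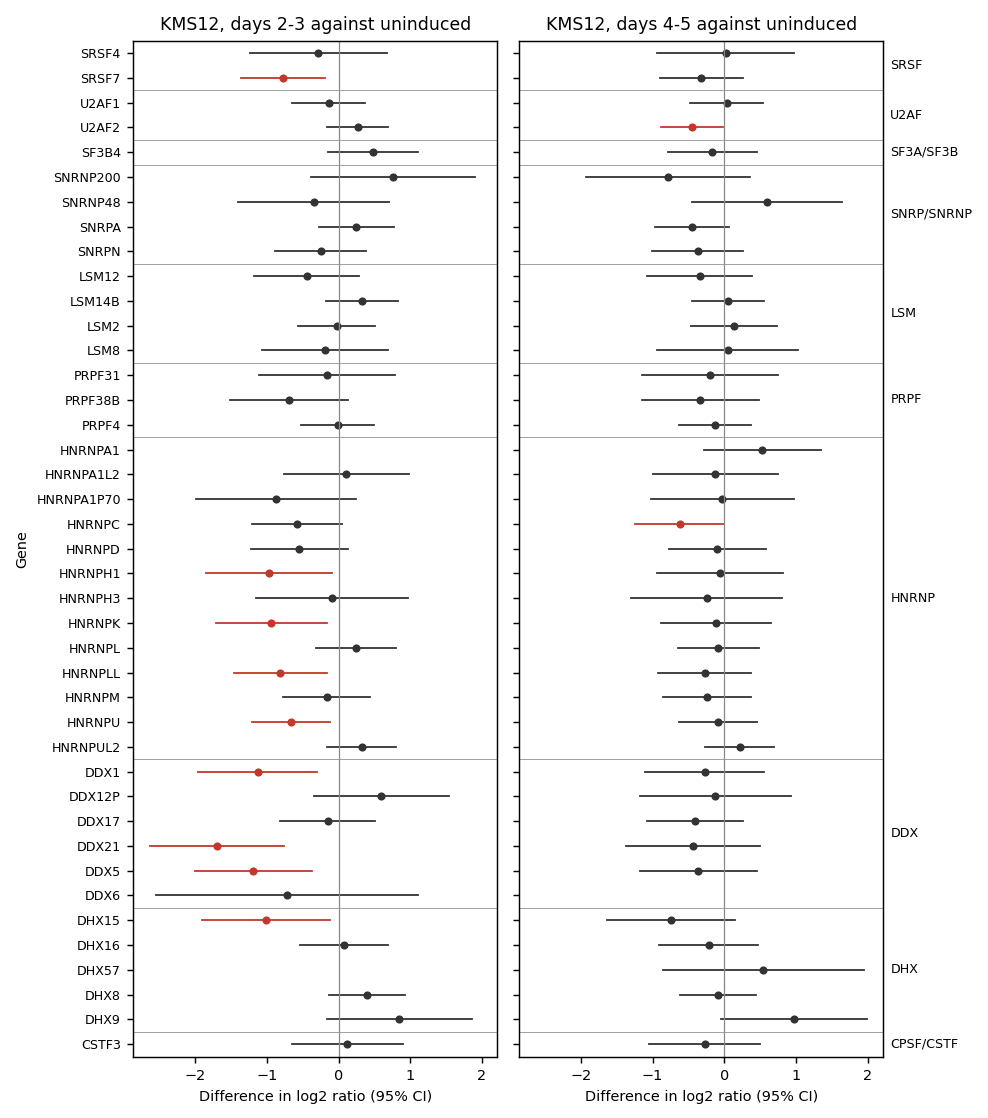
Log2 difference with 95% confidence interval for each member tested (rows, by family) in KMS12 at days 2-3 (left) and days 4-5 (right) against uninduced, with an unadjusted p under 0.05 in red. The 9 red members on the left all lie below 0, and on the right U2AF2 and HNRNPC are red.

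At days 4-5 the group means of the helicases and hnRNPs that were lowest earlier lay nearer the uninduced means. These genes were picked as lowest on the days 2-3 arrays, so a recovery cannot be told apart from that selection. In series 2046 the move was small. Against its own uninduced array, DDX21 differed by -1.21 at day 4 and -1.39 at day 2, DDX5 by -1.05 and -1.16, and DDX1 by -1.08 and -0.92. The lowest p at days 4-5 belonged to U2AF2 and HNRNPC. Of 40 members tested, 30 lay below 0 (47.1% of all genes), with a median of -0.15 against 0.03 for all genes. With arrays centred on features measured on all 13, 17 lay below 0 (27.5% of all genes) and 30 below the median of all genes. With limma 0 members passed an adjusted p of 0.05, as did 0% of all genes, and 2 members had an unadjusted p under 0.05, both lower, against 5.63% of all genes. The smallest adjusted p of a member was 0.804. Both windows were set against the same 3 uninduced arrays. Every days 4-5 array lay below every uninduced array for 2 of 27 members (U2AF2 and HNRNPC, against 7.13% of all genes) and above for 0 (4.73% of all genes). Against the uninduced array of the same series, 8 of these 27 were lower in all 3 series (DDX17, DHX15, HNRNPC, HNRNPM, PRPF4, SNRPA, SNRPN and U2AF2, against 20.9% of all genes) and 0 higher in all 3 (13.3%). With series as a block, U2AF2, HNRNPC and DHX15 had an unadjusted p under 0.05 (8% of all genes).

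U2AF2 had -0.39, -0.58 and -0.47 at days 4-5, against -0.18, -0.05 and 0.14 uninduced, a difference of -0.45 (SE 0.19, adjusted p = 0.804). HNRNPC had -0.01, -0.61 and -0.29 at days 4-5, against 0.17, 0.00 and 0.80 uninduced, a difference of -0.63 (SE 0.28). In both genes every days 4-5 array lay below every uninduced array. DHX9 differed by 0.97, again set by its uninduced values, since its days 4-5 values were 0.17, -0.32 and -0.16. SNRPA differed by -0.45 and DHX15 by -0.75, the lowest of its family. DHX15 had -0.08, -1.37 and -0.43 at days 4-5 and so overlapped its uninduced values.

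Of the family extremes at days 4-5, DDX21 was lowest among the DDX genes at -0.44 and DDX12P highest at -0.12 (0.12 with the block), with 5 of 5 tested below 0. Among HNRNP genes 11 of 13 were below 0, from HNRNPC to HNRNPA1 at 0.53. Of all genes 47.1% were below 0 there. SNRNP200 was at -0.79, set by -1.93 in series 2046, and SNRNP48 at 0.60, or 0.21 with series as a block. SRSF7 was at -0.32 and SRSF4 at 0.02, LSM12 at -0.35 and LSM2 at 0.13, PRPF38B at -0.34 and PRPF4 at -0.13, with U2AF1 at 0.03, SF3B4 at -0.17 and CSTF3 at -0.28. Apart from HNRNPC, none of these had an unadjusted p under 0.05.

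Between the windows, U2AF2, SNRPA, SNRNP200 and SF3B4 were lower at days 4-5 than at days 2-3 and DDX21, HNRNPU, HNRNPK, HNRNPH1, DDX1 and DDX5 were higher, each at an unadjusted p under 0.05. These 10 of 38 members compare with 13.7% of all genes, and 0 members and 0% of all genes passed the adjusted p in limma. In series 2046 alone, DDX1 was at -0.28 at day 4 against -0.12 at day 2, and HNRNPU was at -0.61 on both days. U2AF2 gave the smallest p, with -0.72 (SE 0.19, adjusted p = 0.291), and its groups of 3 arrays each were on opposite sides of 0. SNRPA had -0.49, -0.90 and -0.13 at days 4-5, against 0.22, 0.23 and 0.13 at days 2-3 (difference -0.70, adjusted p = 0.303). DDX21 had -0.07, -0.20 and -0.34 at days 4-5, against -1.53, -2.33 and -0.52 at days 2-3 (difference 1.25, adjusted p = 0.306). Without the series 2046 array at day 2 this difference was 1.72 and DDX21 alone among 32 members passed (adjusted p = 0.0344, 4.19% of all genes called). SNRNP200 (-1.55, adjusted p = 0.308) had 2 arrays in each window and was at -0.68 with series as a block.

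**Figure D4:**
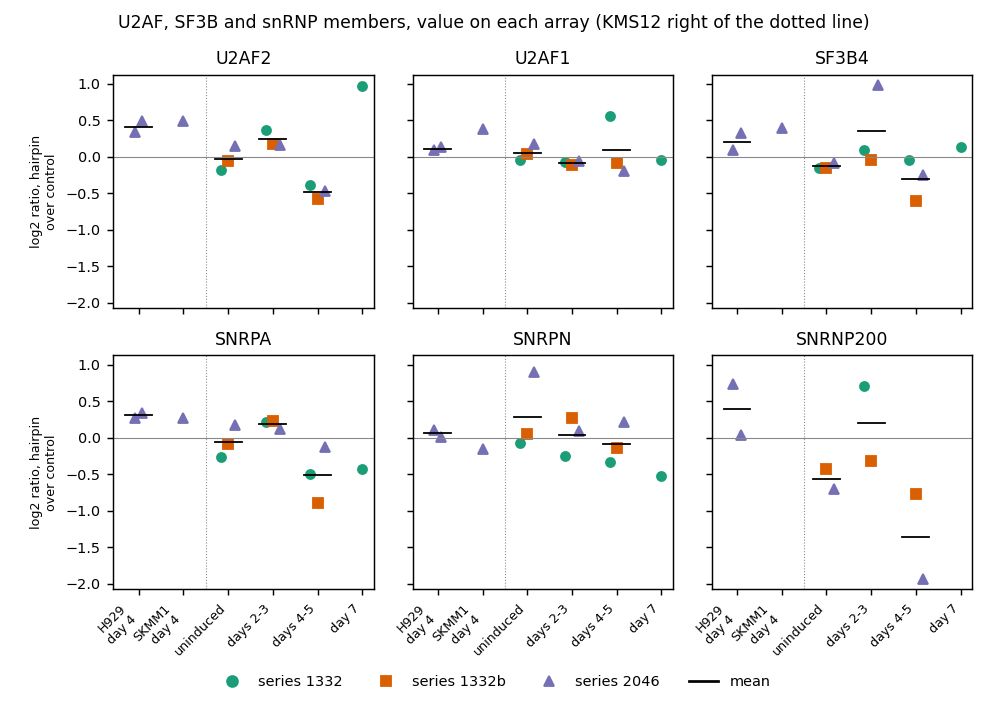
Log2 ratio on each array for U2AF, SF3B and snRNP members, by group, with markers for the culture series and black lines for the mean of groups with more than 1 array. U2AF2 and SNRPA lie above 0 at days 2-3, in H929 and in SKMM1 and below 0 on all days 4-5 arrays of KMS12.

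On the 1 day 7 array (series 1332), 21 of 32 members were above 0. Members that were low at day 3 in the same series were above 0 there, with DDX21 at 0.48, DDX5 at 0.89, DDX1 at 0.51, DHX15 at 0.53 and HNRNPU at 0.72, while HNRNPLL was at -0.17. The highest were PRPF31 at 1.47, a tri-snRNP protein, and HNRNPA1P70 at 1.11. With 1 array there is no replicate check, and members picked for low values at day 3 give no separate test of a recovery.

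In the uninduced KMS12 arrays the members centred on 0, with a median of 0.00 against -0.03 for all genes. HNRNPA1 (-0.99, -0.97 and -1.29) and DHX9 (-2.18, -0.22 and -0.82) were the 2 members of 41 with an unadjusted p under 0.05 against 0, both lower, and 8.23% of all genes reached it. With limma 0 members and 0% of all genes passed the adjusted p. Cy5 always held the hairpin culture, so a dye effect of a gene stays in a ratio tested against 0 and cancels between arrays.

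In H929 the lowest members were again helicases and hnRNPs, with DDX17 and HNRNPC among them. DDX17 had -0.88 and -1.66 on the 2 arrays, a mean of -1.27 (SE 0.26, adjusted p = 0.0584). HNRNPLL had -0.79 and -1.34 (mean -1.06, adjusted p = 0.063), HNRNPC -0.86 and -1.17 (mean -1.01, adjusted p = 0.063). HNRNPK had -0.96 and -1.38 (mean -1.17, adjusted p = 0.0727) and DHX15 -1.09 and -1.56 (mean -1.33, adjusted p = 0.0794). The second array was the lower for each of them. Of 27 members tested against 0, 10 had an unadjusted p under 0.05 (9 lower, and U2AF2 higher at 0.34 and 0.49), against 21.2% of all genes, and 0 passed an adjusted p of 0.05 in limma, against 0.412% of all genes. The member median was -0.10, against 0.02.

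These adjusted p-values lay close to the threshold and crossed it with the filter. Among features measured on at least 10 arrays, DDX17, DHX15, HNRNPC, HNRNPK and HNRNPLL passed as lower (4.14% of all genes lower). Among features measured on all 13 arrays the same 5 passed together with U2AF2, which was higher (17% of all genes called). DDX17 alone passed without centring (0.844% of all genes) and with centring by how often a feature was measured (1.83%).

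On the 1 SKMM1 array 8 members were at -1 or below. DDX5 was at -1.75, HNRNPK at -1.70, HNRNPLL at -1.56, DDX21 at -1.44, HNRNPH1 at -1.43, DDX17 at -1.18, DDX1 at -1.17, HNRNPC at -1.13 and DHX15 at -0.88. The H929 means of these 9 ran between -0.82 and -1.50, with DDX5 and HNRNPH1 measured on the second H929 array alone. On the KMS12 array of the same hairpin and day, 5 of the 9 were between -0.14 and -0.43, DDX5 and HNRNPLL were at 0.04 and 0.02, HNRNPK was at 0.13 and HNRNPH1 at 0.45. Across the 31 members measured in both lines, H929 and SKMM1 ratios had a Pearson r of 0.909 (0.651 over all genes), and across 36 members H929 and that KMS12 array had -0.235 (0.042 over all genes). Members are not independent replicates, and arrays share spots and dye orientation. H929 and SKMM1 have no uninduced array, so the contrast with KMS12 depends on the baseline used. The uninduced KMS12 array of series 2046 was at 1.09 for DDX5, 1.16 for HNRNPH1 and 0.86 for DDX21. Less that array, day 4 of KMS12 was at -1.21 for DDX21, -1.09 for HNRNPC, -1.08 for DDX1 and -1.05 for DDX5. It was at -0.71 for HNRNPH1, -0.64 for DHX15, -0.58 for HNRNPLL, -0.55 for DDX17 and -0.49 for HNRNPK.

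**Figure D5:**
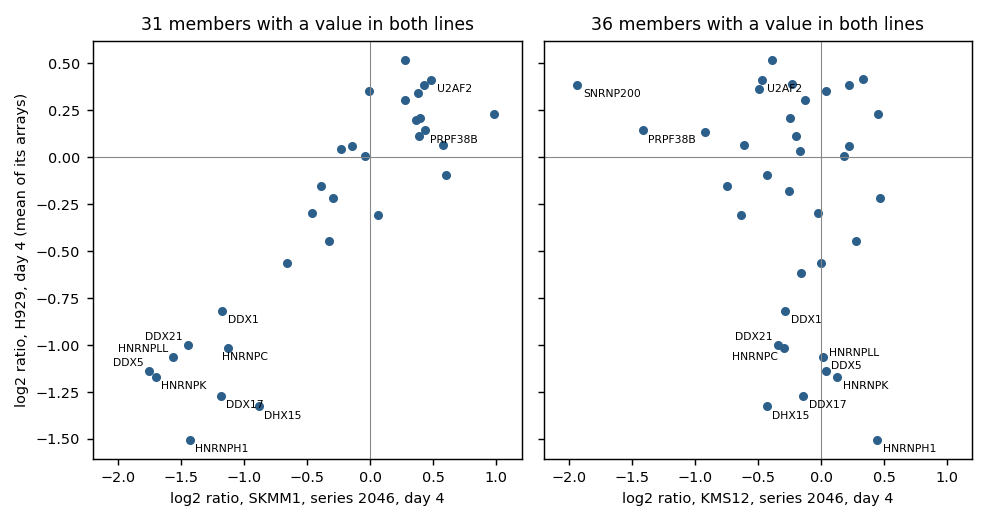
Mean log2 ratio of each member in H929 at day 4 against its ratio in SKMM1 (left, 31 members) and in KMS12 of series 2046 (right, 36 members) at the same day. Helicases and hnRNPs at the bottom of both panels are low in SKMM1 too, and lie between -0.43 and 0.45 in KMS12. No uninduced array is subtracted.

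With each line as 1 replicate of hairpin shi_2046 at day 4, the smallest p belonged to DHX15 (mean of the 3 lines -0.88, SE 0.23), DDX21 (-0.93), HNRNPC (-0.81), DDX1 (-0.76) and DDX17 (-0.87), all at an adjusted p of 0.29. Each of these 5 was below 0 in all 3 lines, but they were picked by p on the same values, so this is no separate support. Of 28 members tested, 9 had an unadjusted p under 0.05 (8 lower, and LSM14B higher at 0.56), against 14.3% of all genes, and 0 members and 0% of all genes passed the adjusted p in limma. The member median was -0.21, against -0.01. Without the KMS12 line, DDX1, DDX5, DDX17, DDX21, DHX15, HNRNPC, HNRNPH1, HNRNPK and HNRNPLL all passed as lower, with means between -0.995 and -1.47 and adjusted p between 0.0237 and 0.0315, against 8.31% of all genes lower. That fit has 2 lines.

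The direct comparison of H929 with KMS12 at days 4-5 gave the smallest p to U2AF2, HNRNPK, HNRNPLL, SNRNP200 and DDX17, none past the adjusted p. U2AF2 had 0.34 and 0.49 in H929, against -0.39, -0.58 and -0.47 in KMS12 (difference 0.90, SE 0.22, adjusted p = 0.192). HNRNPK had -0.96 and -1.38 in H929, against 0.36, 0.04 and 0.13 in KMS12 (difference -1.34, SE 0.39, adjusted p = 0.239). HNRNPLL differed by -1.09, SNRNP200 by 1.74 and DDX17 by -1.06. All 5 lay apart in the arrays measured, and SNRNP200 had 2 arrays on each side. Since they were picked by p on these arrays, the separation is no separate support. Of 27 members 8 had an unadjusted p under 0.05 (5 lower, 3 higher), against 13.2% of all genes, and 0 members and 0% of all genes passed in limma. With features measured on all 13 arrays, U2AF2 and SNRPA passed as higher in H929 (2.66% of all genes called). IRF4 differed by -1.18 in the same comparison (adjusted p = 0.192).

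The KMS12 arrays at days 2-3 and the H929 and SKMM1 arrays have no array in common. Of 31 members tested in both, 9 were lower at days 2-3 at an unadjusted p under 0.05 and 9 were lower in H929 and SKMM1 at an adjusted p under 0.05. The lists shared DDX1, DDX5, DDX21, DHX15, HNRNPH1, HNRNPK and HNRNPLL, 7 genes or 77.8% of each list. Of the 31 members, 29.0% were on the list of the other lines. Over all 4723 genes tested in both, 282 were shared, 38.1% of the days 2-3 list and 64.8% of the list of the other lines, while 9.21% of genes were lower in those lines. HNRNPU and SRSF7 were in the first list alone and DDX17 and HNRNPC in the second alone, and the difference between the lists was not tested. HNRNPU was at 0.08 and 0.05 in H929 and 0.57 in SKMM1.

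Genes of the same pathways under other names were described by counts, with 0 passing the adjusted p at days 2-3 or days 4-5. Of all genes, 48.7% were below 0 at days 2-3 and 47.1% at days 4-5. Of 11 tested spliceosome proteins 8 were below 0 at days 2-3 (median -0.26) and 11 at days 4-5 (median -0.24). CWC15 differed by -1.36, BCAS2 by -1.50 and HTATSF1 by -1.04 at days 2-3, and SNW1 by -0.56, CTNNBL1 by -0.48 and RNPC3 by -0.55 at days 4-5. Of 25 splicing regulators and hnRNP-like proteins 18 were below 0 at days 2-3 (median -0.37), and at days 4-5 18 of 26 (median -0.11). The SR protein kinases SRPK1 (-1.24) and SRPK2 (-1.14) and TIA1 (-1.37), which acts on weak splice sites, had the smallest p at days 2-3. SRPK1 had -0.96, -1.50 and -0.33 at days 2-3, against 0.51, -0.16 and 0.57 uninduced, without overlap. At days 4-5 CELF1 differed by -0.47, SRPK1 by -0.62 and SRPK2 by -0.54.

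Of 8 exon junction and mRNA export factors 6 were below 0 at days 2-3 (median -0.42) and 6 at days 4-5 (median -0.21). THOC1, of the THO export complex, had -3.17, -2.05 and -0.95 at days 2-3, against -0.04, -0.40 and -0.34 uninduced (difference -1.80, adjusted p = 0.107). PNN differed by -1.61 and RBM8A by -0.60 at days 2-3, and THOC6 by -0.40, ALYREF by 0.55 and NCBP1 by 0.83 at days 4-5. Of 6 factors that process the 3′ end 4 were below 0 at days 2-3 (median -0.32) and 3 at days 4-5 (median -0.03). WDR33, which recognises the polyadenylation signal, was above 0, with 1.22, 1.12 and 1.60 at days 2-3 against -0.10 and -0.27 on 2 uninduced arrays (difference 1.50, adjusted p = 0.106). It had 1.21 and 1.19 in H929, where it passed the test against 0 (adjusted p = 0.0489), and 1.26 in SKMM1. BARD1 differed by -0.62 and RBBP6 by -0.41 at days 2-3, and PPP1CA by -0.13 at days 4-5. Of 3 helicases under other names, the member SNRNP200 among them, 1 was below 0 at days 2-3 (median 0.62) and 2 at days 4-5 (median -0.54). MTREX, of the nuclear exosome, differed by -0.75 and -0.54 at these windows and DICER1 by 0.62 and 0.56. No gene of the survival of motor neuron complex list was measured on 7 arrays.

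Cell type markers were read on the same arrays, where 48.7% of all genes were below 0 at days 2-3 and 47.1% at days 4-5. Of 12 plasma cell genes, IRF4 included, 9 were below 0 at days 2-3 (median -0.49) and 11 at days 4-5 (median -0.43). Their array medians were -0.36 to -0.28 in H929, -0.28 in SKMM1, -0.68 to -0.20 at days 2-3, -0.47 to -0.20 at days 4-5 and -0.46 at day 7, against -0.00 to 0.23 uninduced. Of 8 T cell genes 8 were above 0 at days 2-3 (median 0.30). Array medians of the T cell list, 9 genes measured, were 0.21 to 0.41 in H929, 0.31 in SKMM1, -0.19 to 0.30 at days 2-3, -0.14 to 0.22 at days 4-5 and 0.05 at day 7, against -0.16 to -0.09 uninduced. Those of 3 myeloid genes were -0.45 to -0.31 in H929, 0.15 in SKMM1, -1.31 to -0.00 at days 2-3, -0.22 to 0.18 at days 4-5 and 0.18 at day 7, against 0.07 to 0.08 uninduced. Those of 5 erythroid or stromal genes were 0.25 to 0.26 in H929, 0.34 in SKMM1, 0.27 to 0.43 at days 2-3, 0.21 to 0.97 at days 4-5 and -0.32 at day 7, against -0.30 to 0.26 uninduced. A ratio does not show whether a marker was at background in both cultures, and the part of these genes in the members' results was not tested. Fewer cells of a kind and less RNA per cell cannot be told apart in such bulk samples.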

How the data were processed

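RNA of 13 pairs of cultures was extracted with Trizol and hybridised to spotted cDNA arrays, IRF4 hairpin in Cy5 and luciferase hairpin in Cy3 per the labels, with no dye swap. The values the authors deposited are log ratios for 15246 features on 13 arrays, taken here as log2 since they run from -9.78 to 7.51. How they were normalized and background-corrected, why spots were left blank and the log base are points not given in the sources used here. Gene symbols came from the platform annotation, updated through the gene identifier with RefSeq names (10169 features with 1 symbol, 4 with several, 5073 with none, which were tested unnamed). Features with a value on at least 7 arrays (10396) were kept, each array was centred on its median, and features of a gene were averaged per array.

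Group means over all 13 arrays were estimated by lmFit and eBayes of limma 3.58.1 under R 4.3.3, with two-sided tests, a gene tested where each group of a comparison had at least 2 values and p-values adjusted by Benjamini-Hochberg over all genes and unnamed features, threshold 0.05. Groups with 1 array share the spread. The 3 cell lines were fitted with 1 value per line. The fits were tested on simulated data. Members, lists and the rule for named genes were chosen with earlier results of these data known. Named are members past the threshold or, where fewer than 5 pass, the 5 with the smallest p in a comparison, the extremes of each family at both windows, and up to 3 genes per pathway list. Other members are named to complete their families. Series names come from the labels. Deviations from the group means correlated in every same-series pair of uninduced arrays with days 2-3 (0.127, 0.276 and 0.202) and with days 4-5 (0.204, 0.138 and 0.118), so series pair the arrays in comparisons with uninduced. Between days 2-3 and days 4-5 they did not in every pair (0.33, -0.107 and -0.12). The fits as reported have no block, so their SE and adjusted p ignore this pairing. The fit with series as a block is given for counts and for some members whose difference it moved. For the 9 members at an unadjusted p under 0.05 at days 2-3, the block lowered every adjusted p. These then ran between 0.0693 (DDX21 and DHX15) and 0.134 (HNRNPU), with DDX5 at 0.0787, HNRNPLL at 0.0909 and HNRNPH1 at 0.0938. Alternatives changed the centring, the minimum of measured arrays, the averaging of features, the arrays that entered and the block, and leaving out arrays within the block fit was added after seeing the data. Signal intensities were not used here, so precision rests on the number of arrays.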

Additional observations from a re-analysis of the deposited data

Results flagged for a closer look

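For 9 members the measured arrays of the groups compared, at least 2 on each side, all lay on opposite sides of 0 in 1 or more of the comparisons below, and none of these 14 differences passed the adjusted p in limma. The share of all genes that meet this rule was not counted, so the number is not a result about the members. In H929 against KMS12 at days 4-5, U2AF2 differed by 0.90 (adjusted p = 0.192), SNRPA by 0.81 (adjusted p = 0.271), HNRNPK by -1.34 (adjusted p = 0.239), SF3B4 by 0.51 (adjusted p = 0.511), HNRNPU by 0.33 (adjusted p = 0.639) and SNRNP200, with 2 arrays on each side, by 1.74 (adjusted p = 0.265). At days 2-3 against uninduced KMS12, DDX1 differed by -1.13 (adjusted p = 0.139), DDX5 by -1.19 (adjusted p = 0.123), HNRNPK by -0.94 (adjusted p = 0.163) and SRSF7 by -0.77 (adjusted p = 0.144). Between days 4-5 and days 2-3 in KMS12, DDX5 differed by 0.82 (adjusted p = 0.362), HNRNPK by 0.82 (adjusted p = 0.339), SNRPA by -0.70 (adjusted p = 0.303) and U2AF2 by -0.72 (adjusted p = 0.291). Days 4-5 against uninduced had 0 such members. The rule was applied to gene averages. For SF3B4, 1 of its 2 features was above 0 at days 4-5 in KMS12 of series 1332 (0.005) and 2046 (0.397).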

How the results depend on the processing

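Of 488 values of single members under changed settings, 448 kept direction and side of the threshold, 15 passed it and 25 turned sign, and of 639 with 1 array or line left out, the series block included, these were 592, 20 and 27. Against 0 members called as reported, 2 were called with days 2-3 tested against a ratio of 0. With features measured on all 13 arrays the counts were 1 (days 2-3), 2 (H929 against KMS12) and 6 (H929 against 0), and with those on at least 10 arrays 5 (H929 against 0). The count was 1 in H929 against 0 without centring and also with centring within classes. Leaving out 1 array gave 0 to 6 at days 2-3 (6 without the series 2046 array at day 2) and 0 to 1 between the windows, and leaving out 1 array or line gave 0 to 9 in the 3 lines (9 without KMS12). Stricter filters also left fewer genes to test, and the cause of these changes was not tested.

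With arrays centred on features measured on all 13, the member median was -0.001 at days 2-3, 0.037 at days 4-5, -0.12 uninduced and -0.01 in H929. It was -0.31 at days 2-3 with centring within classes. For H929 against KMS12 it was -0.32 and -0.12 with features on all 13 and on at least 10 arrays and -0.11 with each feature fitted alone, and for H929 against 0 it was -0.19 with features on all 13. Leaving out 1 array, with or without the block, gave medians of -0.401 to -0.114 at days 2-3 and -0.332 to -0.028 at days 4-5, and without the block -0.077 to 0.14 between the windows, -0.22 to -0.003 for H929 against KMS12, -0.011 to 0.17 uninduced, -0.048 to 0.058 in H929 and -0.26 to -0.074 in the 3 lines.

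With culture series as a replicate block, the paired fit called 0 members in each of the 3 KMS12 comparisons, as without it, and gave medians of -0.168, -0.15 and 0.035. The block turned SNRNP200 to -0.11 at days 2-3 and DDX12P to 0.12 at days 4-5. Leaving out 1 array in that fit, chosen after seeing the data, called 0 to 5 members at days 2-3 (5 without day 2 of series 2046, 3 without day 4 of series 1332b and 1 without day 4 of series 2046) and 0 at days 4-5.

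None of the members that turned sign passed the threshold in either fit. Tested against 0, DHX9 was at -0.23 at days 2-3 and -0.10 at days 4-5, HNRNPA1 at -0.55, SRSF7 at 0.072 and SRSF4 at -0.08. With arrays centred on features measured on all 13, or with only those features, PRPF4 was at 0.15 and U2AF1 at 0.03 at days 2-3, and PRPF4 at 0.055 at days 4-5. That centring also gave DDX12P 0.10 and SF3B4 0.019 at days 4-5. Centring within classes gave CSTF3 -0.078, PRPF4 0.155 and U2AF1 0.03 at days 2-3, and HNRNPA1 -0.019, PRPF4 0.055 and SRSF4 -0.23 at days 4-5. Without centring SRSF4 was at -0.055 and U2AF1 at -0.028 at days 4-5. With features on at least 10 arrays PRPF4 was at 0.092 (days 2-3) and CSTF3 at 0.064 (days 4-5). Leaving out 1 array, with or without the block, gave CSTF3 -0.09 to 0.346, PRPF4 -0.175 to 0.168 and SNRNP200 -0.114 to 0.761 at days 2-3, and DDX21 -0.808 to 0.022, DDX12P -0.251 to 0.601, HNRNPA1 -0.034 to 0.89, LSM12 -0.634 to 0.127, PRPF38B -0.737 to 0.176 and U2AF1 -0.221 to 0.211 at days 4-5.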
